A study of Mus musculus with 10 samples.

Results

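The ZIP zinc transporters (the Slc39a gene family) were followed in Neuro-2a, a neuroblastoma line of mouse origin, after depletion of the nuclear RNA-binding protein Sfpq. The 10 members are Slc39a1, Slc39a3, Slc39a6, Slc39a7, Slc39a8, Slc39a9, Slc39a10, Slc39a11, Slc39a13 and Slc39a14, of 23553 genes or unnamed transcript rows measured. The family was selected on the poly(A) fold change of Slc39a11, the largest fall of all genes tested. That fall is therefore described here and not tested. The other 9 members came in with it as relatives, and 4 further ZIP genes lie outside the 10. Cells received small interfering RNA (siRNA) with the RNAiMAX reagent, either against luciferase (Luc), which mouse cells lack, or against mouse Sfpq, and both groups were kept in medium with 2% serum, a condition the labels call differentiated. Sequencing covered 3 Luc and 3 Sfpq libraries of poly(A) RNA, and 1 of each kind made after removal of ribosomal RNA (rRNA). As a model this is 1 tumour-derived cell line, and the labels do not tell whether each replicate was its own culture; a p-value here reflects only how far libraries vary, which may be technical. The unit is RPKM, a read number corrected for transcript length and library size, which allows levels of different genes to be set side by side.

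ZIP proteins carry zinc into the cytosol, from outside the cell or out of organelles, and most ZnT proteins (the Slc30a family) carry it the opposite way. Some ZIPs also carry iron, manganese or cadmium. In neurons zinc is also packed into synaptic vesicles, and free zinc in the cytosol is held low by metallothioneins, whose genes are switched on by the zinc-sensing transcription factor Mtf1.

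Sfpq itself checks the labels. Its RPKM was 56.8, 60.8 and 73.0 in Luc and 3.98, 4.75 and 6.47 in Sfpq poly(A) libraries, and 30.8 and 4.43 in the Luc and Sfpq rRNA-depleted libraries. All 10 neuroblastoma markers examined had a mean of at least 1 RPKM, with sums of 874 to 1064 RPKM in Luc and 867 to 925 in Sfpq poly(A) libraries. Fibroblast, glial, leukocyte and hepatocyte markers had 0 genes at that level, and no list of them summed to more than 1.77 RPKM in any library. Low RPKM values step by whole reads, which put the depth of the libraries between 0.628 (Sfpq replicate 1) and 2.65 times (rRNA-depleted Sfpq) that of Luc replicate 1; the absolute depth is unknown. Among Luc libraries, replicate 3 was the least alike (0.985 and 0.979 in correlation with replicates 1 and 2, against 0.996 between those). Fewer cells expressing a gene and less RNA per cell cannot be told apart in such bulk samples.

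Slc39a11, which encodes a zinc transporter found mainly on intracellular membranes, was nearly lost. It had 14.6, 13.5 and 10.96 RPKM in the 3 Luc libraries and 0.264, 0.271 and 0.364 RPKM in the 3 Sfpq libraries. The Sfpq libraries thus held 2.30% of the Luc mean, and every one of them lay far below every Luc library. On the log2(RPKM + 0.5) scale the difference was -4.07 (SE 0.14, n = 3 per group), which is the lowest of 11727 genes and which, as the reason the family was chosen, carries no test. In the rRNA-depleted libraries, which played no part in that choice, Slc39a11 had 13.0 RPKM in Luc and 0.307 in Sfpq, or 2.36% of the Luc value. That log2 ratio of -4.07, with 1 library per group and so with no test, was also the lowest of 11386 genes. Since the added 0.5 RPKM holds down the change of a gene that ends near 0, both values depend on it: with 0.1 in its place they were -5.04 and -5.01, and with 1 they were -3.42 and -3.42. Slc39a11 had 2 RefSeq rows, and the second gave 14.4, 13.6 and 10.7 RPKM in Luc and 0.193, 0.260 and 0.310 RPKM in Sfpq libraries. Both records showed the loss, but as rows of the same gene they may share reads and are not separate measurements.

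Promoter windows of the gene that was nearly lost and of Slc39a3, whose RNA rose, are printed below for comparison of these 2 ends of the family. They are 300 bases long, reach from upstream of an annotated start site to just past it, and come from RefSeq on GRCm38.p6, a build other than that of the expression files. Slc39a11 has 2 windows, at chr11:113650043-113650342 and chr11:113565766-113566065 (both minus strand), and Slc39a3 has 1 at chr10:81037266-81037565 (minus strand). Capitals mark matches to the core of the metal response element, the sequence that Mtf1 binds, searched as TGCACNC and TGCGCNC on both strands with overlapping matches allowed.
Slc39a11, first window: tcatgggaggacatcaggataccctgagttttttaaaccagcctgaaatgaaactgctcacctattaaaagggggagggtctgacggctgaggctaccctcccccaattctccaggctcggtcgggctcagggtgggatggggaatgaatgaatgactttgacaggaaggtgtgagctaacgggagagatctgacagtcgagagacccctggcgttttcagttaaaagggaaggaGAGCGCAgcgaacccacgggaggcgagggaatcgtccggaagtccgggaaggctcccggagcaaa
Slc39a11, second window: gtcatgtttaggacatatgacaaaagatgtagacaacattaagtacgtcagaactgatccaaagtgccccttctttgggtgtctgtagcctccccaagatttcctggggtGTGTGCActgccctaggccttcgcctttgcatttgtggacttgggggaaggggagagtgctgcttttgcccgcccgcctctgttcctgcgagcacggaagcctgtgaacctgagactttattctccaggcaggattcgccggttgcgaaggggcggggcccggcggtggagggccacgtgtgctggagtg
Slc39a3: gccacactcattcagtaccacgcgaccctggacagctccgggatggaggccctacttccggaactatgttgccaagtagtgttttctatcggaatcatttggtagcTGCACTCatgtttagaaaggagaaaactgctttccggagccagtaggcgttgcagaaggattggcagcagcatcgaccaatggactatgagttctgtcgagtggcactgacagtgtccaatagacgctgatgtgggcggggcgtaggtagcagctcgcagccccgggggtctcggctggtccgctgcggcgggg
Each of these windows held 1 match, starting at -15, -140 and -144 relative to the start site at 0. Of the 10 members, 8 had a window in the table, 11 windows in all, and 5 windows of 4 members held a match (Slc39a3, Slc39a8, Slc39a11 and Slc39a13). Among all 32851 promoter windows of that length 25.7% held at least 1 match, so that a match is common. Both the gene with the deepest fall and the gene that rose held one, while the windows of Slc39a1, Slc39a7, Slc39a9 and Slc39a10 held none. Slc39a6 and Slc39a14 had no window in the table.

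**Figure D1:**
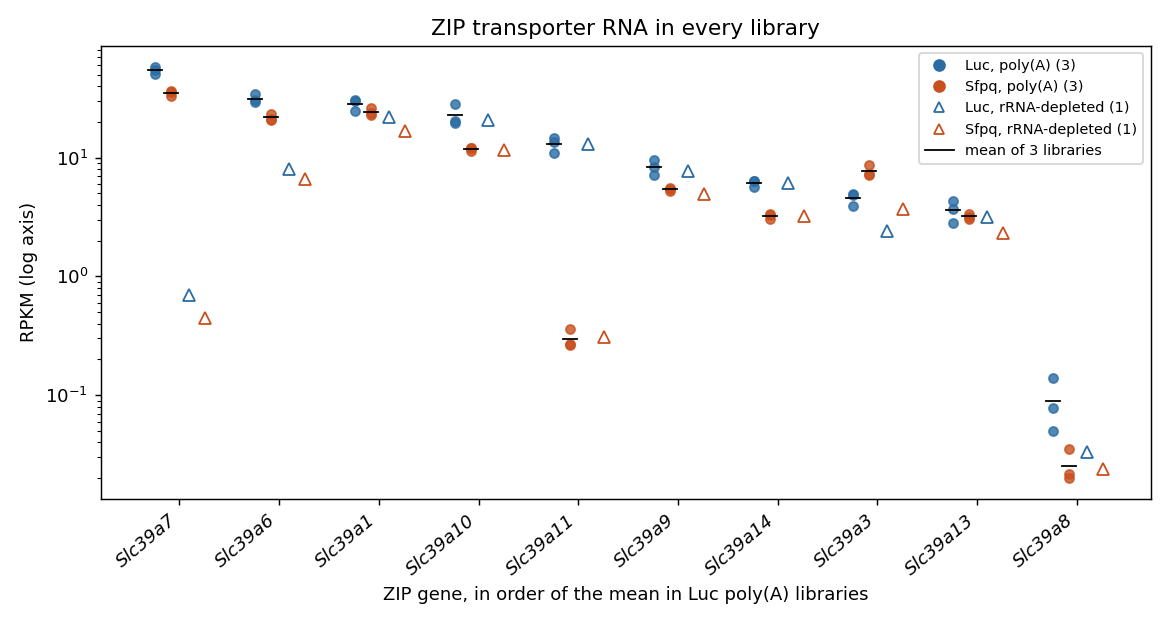
RPKM (log axis) of the 10 ZIP genes in every library: filled circles are poly(A) libraries (3 Luc in blue, 3 Sfpq in orange, black bars their means) and open triangles the single rRNA-depleted libraries. Slc39a11 drops from about the middle of the family to below 0.4 RPKM in both preparations, Slc39a3 is the one gene whose Sfpq libraries lie above Luc, and the rRNA-depleted triangles of Slc39a7 lie far below its poly(A) circles.

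In Luc cells the family spanned a wide range of levels. Slc39a7, which releases zinc from the endoplasmic reticulum, was the most abundant at 54.5 ± 4.07 RPKM (SD, n = 3). Slc39a6 (31.3 ± 2.52), Slc39a1 (28.3 ± 3.09) and Slc39a10 (22.7 ± 4.95 RPKM), transporters of the plasma membrane, followed, and neighbours in that order overlapped in range. Slc39a11 (13.0 ± 1.86), Slc39a9 (8.31 ± 1.17) and Slc39a14 (6.11 ± 0.417 RPKM) came next, each separate in range from the one above it. Slc39a3 (4.56 ± 0.578) and Slc39a13 (3.61 ± 0.761 RPKM) overlapped. Slc39a8, a carrier of zinc, manganese and cadmium, was near the bottom of measurement at 0.0887 ± 0.0450 RPKM. Of the 4 other ZIP genes, Slc39a4, best known as the intestinal zinc importer, had 2.76 ± 0.781 RPKM (SD, n = 3), while Slc39a2, Slc39a5 and Slc39a12 stayed under 0.13 RPKM in every library.

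The summed level of the 10 members was 172, 174 and 171 RPKM in Luc and 112, 114 and 112 RPKM in Sfpq poly(A) libraries. Without Slc39a11 the sums were 157, 161 and 160 RPKM in Luc and 111, 114 and 111 RPKM in Sfpq libraries, so most of the lower total lay in the other members. Slc39a11 made up 7.55% ± 1.06 of the family's summed RPKM (SD, n = 3) in Luc and 0.266% ± 0.0516 after Sfpq siRNA, while the share of Slc39a7 was 31.6% ± 2.09 and 31.1% ± 1.51. These sums are descriptions of the chosen genes and were not tested.

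The first comparison asks how the members other than Slc39a11 differed after Sfpq siRNA in poly(A) RNA. Of the 9 other members, 8 passed the filter of a mean of 0.5 RPKM: 5 fell, 1 rose and 2 did not pass the limma test at an adjusted p under 0.05. Of all 11727 genes tested, 18.6% were called lower and 21.3% higher, and since the contrast is the one that led to the family, nothing is read from the count of members (40% were called in either direction). Of these 8, 5 had every Sfpq library below every Luc library and 1 had every one above, beside 24.7% and 28.2% of all genes. Their median log2 fold change was -0.54, beside 0.05 over all genes tested. Those 6 calls held under every alternative tried, among them other scalings and leaving out each library in turn; without Luc replicate 3, 6 members were lower, Slc39a1 being added.

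At the plasma membrane, Slc39a10, known to work in a complex with Slc39a6, fell. It had 20.2, 19.4 and 28.3 RPKM in Luc and 11.3, 12.1 and 11.9 RPKM in Sfpq libraries, with no overlap, a log2 fold change of -0.90 (SE 0.15, limma adjusted p = 0.00126). Slc39a6, the founding member of the LIV-1 branch of the family, fell less. It went from 29.4, 30.4 and 34.2 RPKM in Luc to 20.8, 23.4 and 21.1 RPKM in Sfpq libraries, again without overlap (log2 fold change -0.51, SE 0.10, limma adjusted p = 0.00425). Slc39a14, which brings manganese and iron as well as zinc into cells, was close to halved. Its values were 5.63, 6.31 and 6.40 RPKM in Luc and 3.04, 3.35 and 3.29 RPKM in Sfpq libraries (log2 fold change -0.83, SE 0.11, limma adjusted p = 0.000422), and its 2 other RefSeq rows gave lower values in each Sfpq than in each Luc library too.

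Slc39a1 and Slc39a3 are closely related importers of the plasma membrane, and their RNAs differed in direction. Slc39a3 had 4.84, 4.94 and 3.89 RPKM in Luc and 8.62, 7.16 and 7.25 RPKM in Sfpq libraries. Every Sfpq library was above every Luc library, and the rise was 1.68-fold (log2 fold change 0.69, SE 0.13, limma adjusted p = 0.0027). Slc39a1 had 30.5, 29.7 and 24.8 RPKM in Luc and 25.9, 23.8 and 22.8 RPKM in Sfpq libraries. The groups overlapped through Luc replicate 3, and the log2 fold change of -0.22 (SE 0.11) did not pass (limma adjusted p = 0.147); without that library it was -0.31 and passed (limma adjusted p = 0.00948).

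Among the transporters of internal membranes, Slc39a7 and Slc39a9 fell. Slc39a7 had 54.8, 58.4 and 50.3 RPKM in Luc and 32.9, 35.8 and 36.3 RPKM in Sfpq libraries (log2 fold change -0.63, SE 0.10, limma adjusted p = 0.00116), and its groups did not overlap. Slc39a9, a transporter of the Golgi and also described as a membrane androgen receptor, had 8.25, 7.16 and 9.51 RPKM in Luc and 5.54, 5.19 and 5.48 RPKM in Sfpq libraries (log2 fold change -0.57, SE 0.12, limma adjusted p = 0.00572). Its Sfpq libraries were also all below its Luc libraries. Slc39a13, which moves zinc out of the Golgi and vesicles and is needed in connective tissue, had 3.67, 4.34 and 2.82 RPKM in Luc and 3.18, 3.35 and 3.05 RPKM in Sfpq libraries. These overlapped, and the log2 fold change of -0.14 (SE 0.15) did not pass (limma adjusted p = 0.489).

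Slc39a8 did not reach the filter and has no test in that fit. Its RPKM was 0.0504, 0.0774 and 0.138 in Luc and 0.02004, 0.0216 and 0.0351 in Sfpq libraries. The Sfpq values were all the lower ones, at a level where a few reads decide the value. Slc39a4, outside the 10, had 2.86, 3.49 and 1.94 RPKM in Luc and 3.34, 3.94 and 3.77 RPKM in Sfpq libraries, and its log2 fold change of 0.39 (SE 0.18) did not pass (limma adjusted p = 0.11); without Luc replicate 2 it was 0.55 and passed (limma adjusted p = 0.029).

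The second comparison asks the same of rRNA-depleted RNA, with 1 library per group and therefore no test. Of 9 members with a mean of 0.5 RPKM or more, 8 were lower in the Sfpq library, as were 51.7% of all genes at any size of difference, and 1, Slc39a3, was higher. At least 2-fold lower on the log2(RPKM + 0.5) scale was 1 member, Slc39a11, and 0 were at least 2-fold higher, beside 5.18% and 1.65% of all 11386 genes. The direction in poly(A) and rRNA-depleted RNA was the same for all 9 members, as it was for 86.7% of 11208 genes measured in both.

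Slc39a14 had 6.12 RPKM in the Luc and 3.19 RPKM in the Sfpq rRNA-depleted library, a log2 ratio of -0.84, and Slc39a10 had 20.9 and 11.6 RPKM (-0.83). Slc39a9 had 7.75 and 4.94 RPKM (-0.60). These 3 ratios were close in size to the poly(A) changes. Slc39a3 had 2.41 RPKM in Luc and 3.69 RPKM in Sfpq (0.53). Slc39a1 (22.1 and 16.6 RPKM, -0.40) and Slc39a13 (3.14 and 2.33 RPKM, -0.36), which did not pass in poly(A) RNA, were lower here, and Slc39a6 (7.99 and 6.66 RPKM, -0.24) was lower by less than in poly(A) RNA. No replicate shows whether these sizes differ between the preparations.

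**Figure D2:**
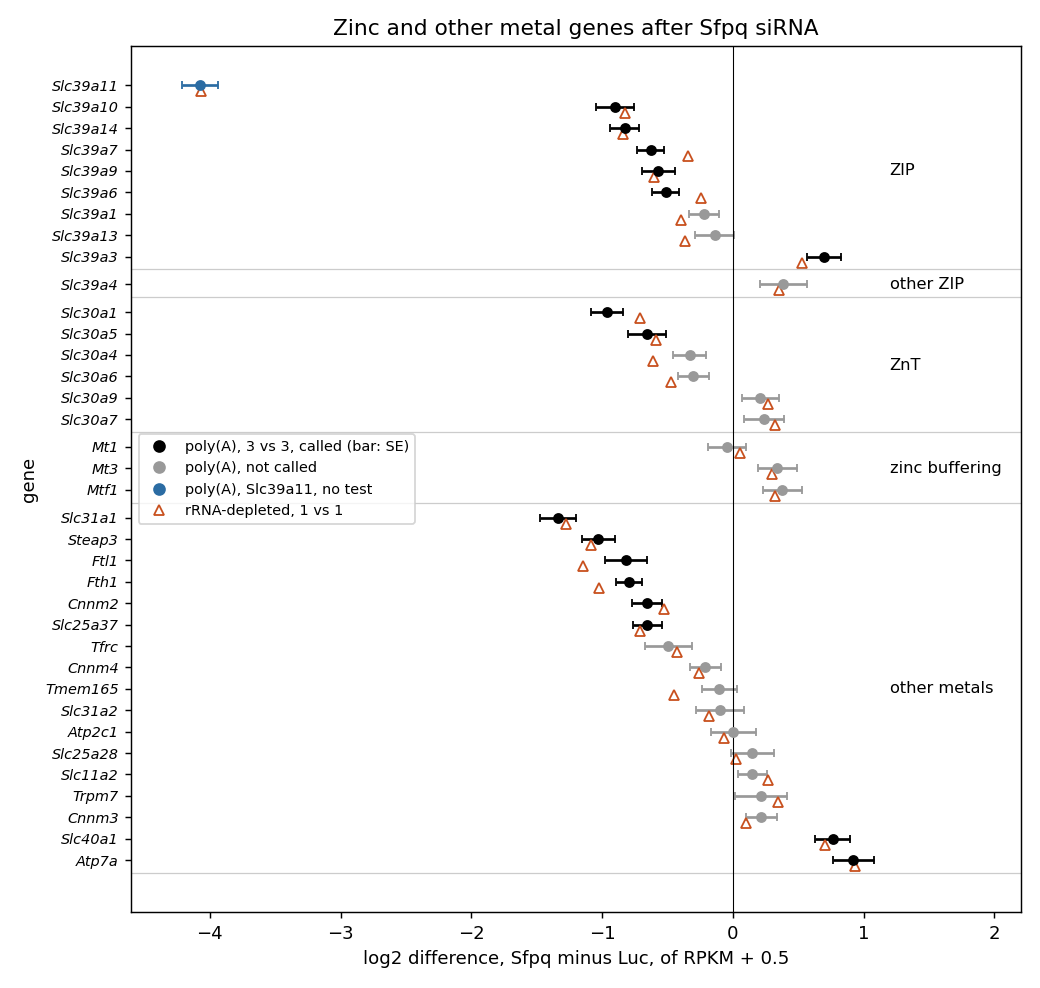
Log2 difference of RPKM + 0.5, Sfpq minus Luc, for zinc and other metal genes that passed the filter. Circles with SE bars are the poly(A) comparison of 3 against 3 libraries (black called, grey not called, blue Slc39a11, which has no test) and orange triangles the single rRNA-depleted pair. Slc39a11 lies at -4.07 in both preparations, while all other genes shown lie between -1.34 and 0.93.

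Levels in the Luc libraries also differed between the preparations, which bears on how far the rRNA-depleted ratios can be read. Slc39a11 (13.0 RPKM in both), Slc39a14 (6.11 against 6.12 RPKM), Slc39a9 (8.31 against 7.75 RPKM) and Slc39a10 (22.7 against 20.9 RPKM) had nearly the same RPKM in poly(A) and rRNA-depleted RNA. Such equality was not typical, since most genes had lower RPKM in rRNA-depleted RNA. The log2 difference, rRNA-depleted minus poly(A), was lower than that of Slc39a11 in 81.5% of genes and than that of Slc39a10 in 74.9%. Slc39a6 was 3.92 times higher in poly(A) RNA, at 31.3 against 7.99 RPKM. By the RefSeq row used for it, Slc39a7 was 78.0 times higher in poly(A) RNA, at 54.5 against 0.699 RPKM. That log2 difference of -5.52 was lower in 0.146% of genes. Its second row differed by less, at 52.1 against 4.49 RPKM. A level at least 4-fold lower in rRNA-depleted RNA was found for 3.91% of 11667 genes.

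The 2 RefSeq rows of Slc39a7 disagreed in rRNA-depleted RNA and not in poly(A) RNA. In poly(A) libraries the second row gave 52.3, 56.0 and 47.9 RPKM in Luc, close to the first. In the rRNA-depleted libraries it gave 4.49 RPKM in Luc and 3.47 in Sfpq, against 0.699 and 0.443 RPKM for the first. H2-Ke6, the gene next to Slc39a7, was likewise listed at 0 in both rRNA-depleted libraries, with 6.68, 7.15 and 4.10 RPKM in Luc and 5.12, 6.39 and 7.56 RPKM in Sfpq poly(A) libraries. Rxrb, a nuclear receptor gene on the other side, had 16.8 ± 2.71 RPKM in Luc poly(A) libraries (SD, n = 3) and 11.9 RPKM in the rRNA-depleted Luc library. The rRNA-depleted log2 ratio of Slc39a7 (-0.35) therefore rests on very low values and moved with the added constant, from -0.56 with 0.1 to -0.23 with 1.

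**Figure D3:**
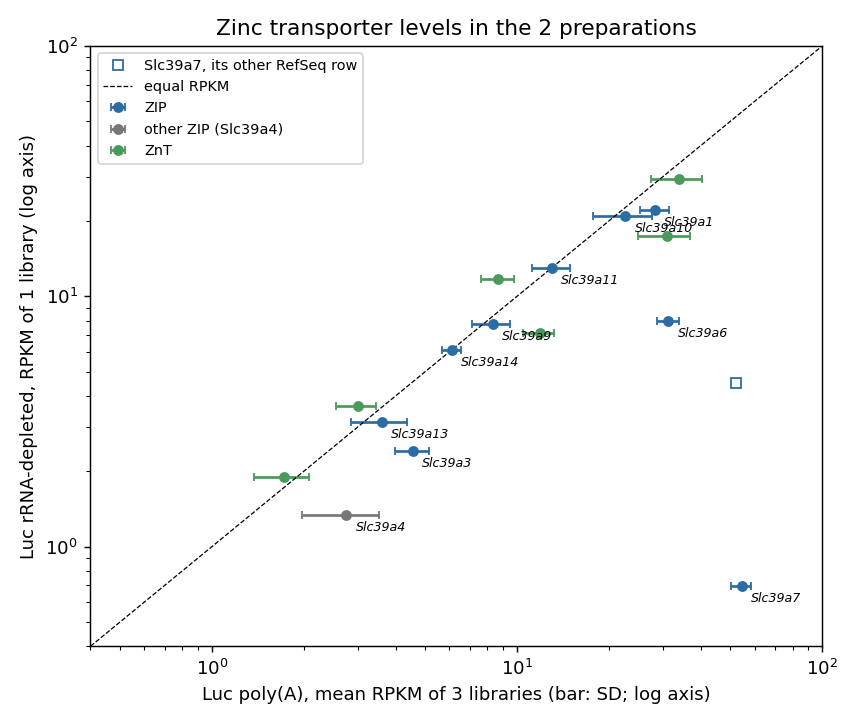
RPKM in Luc cells, poly(A) (mean of 3 libraries, bars SD) against rRNA-depleted (1 library), both on log axes, for ZIP genes (blue), Slc39a4 (grey) and ZnT genes (green); the dashed line is equal RPKM and the open square the second RefSeq row of Slc39a7. Most ZIP genes lie near the line, Slc39a6 lies 3.92-fold and Slc39a7, by the row used, 78.0-fold below it.

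Genes next to the members were compared because position played no part in the choice of the family. A neighbour is the coding gene whose start coordinate comes next before or after that of the member. Its span can overlap the member, as for Erh (with Slc39a9) and Sstr2 (with Slc39a11). Of 19 measured coding neighbours, 15 passed the filter, of which 3 fell, 2 rose and 10 did not pass, with log2 fold changes from -0.09 to 0.41 among the 10; 18.6% of all genes tested were called lower and 21.3% higher. Sstr2, a somatostatin receptor gene whose start coordinate lies within the span of Slc39a11 in the RefSeq table, fell. It had 1.48, 1.37 and 1.95 RPKM in Luc and 0.172, 0.324 and 0.175 RPKM in Sfpq libraries (log2 fold change -1.53, SE 0.15, limma adjusted p = 7.54e-05). Whether the authors counted by strand is not given in the sources used here, so reads of the overlapping pair cannot be told apart. The neighbour before Slc39a11, without overlap, is Sox9, a transcription factor gene. Sox9 had 3.14 ± 0.659 RPKM (SD, n = 3) in Luc and 3.60 ± 0.287 RPKM after Sfpq siRNA, and did not pass (limma adjusted p = 0.345).

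Tmeff2, a transmembrane protein gene beside Slc39a10, fell more than Slc39a10 itself. It had 5.86, 6.25 and 8.92 RPKM in Luc and 1.02, 1.45 and 1.24 RPKM in Sfpq libraries (log2 fold change -2.10, SE 0.17, limma adjusted p = 2.35e-05). Rprd1a, beside Slc39a6 and encoding a protein that binds the tail of RNA polymerase II, fell by 0.52 on the log2 scale (SE 0.12, limma adjusted p = 0.00692), much like Slc39a6. Both neighbours of Slc39a3, Diras1 and Sgta, were among the 10 that did not pass. The 2 that rose were Nfkb1, a transcription factor gene beside the scarcely expressed Slc39a8 (log2 fold change 0.79, SE 0.10, limma adjusted p = 0.000343), and Creb3l4, beside Slc39a1 (0.52, SE 0.15, limma adjusted p = 0.0209). Creb3l4 no longer passed when Luc replicate 1 (0.43), or either of Sfpq replicates 1 (0.44) and 3 (0.50), was left out, or with no filter on low values (limma adjusted p = 0.0717).

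**Figure D4:**
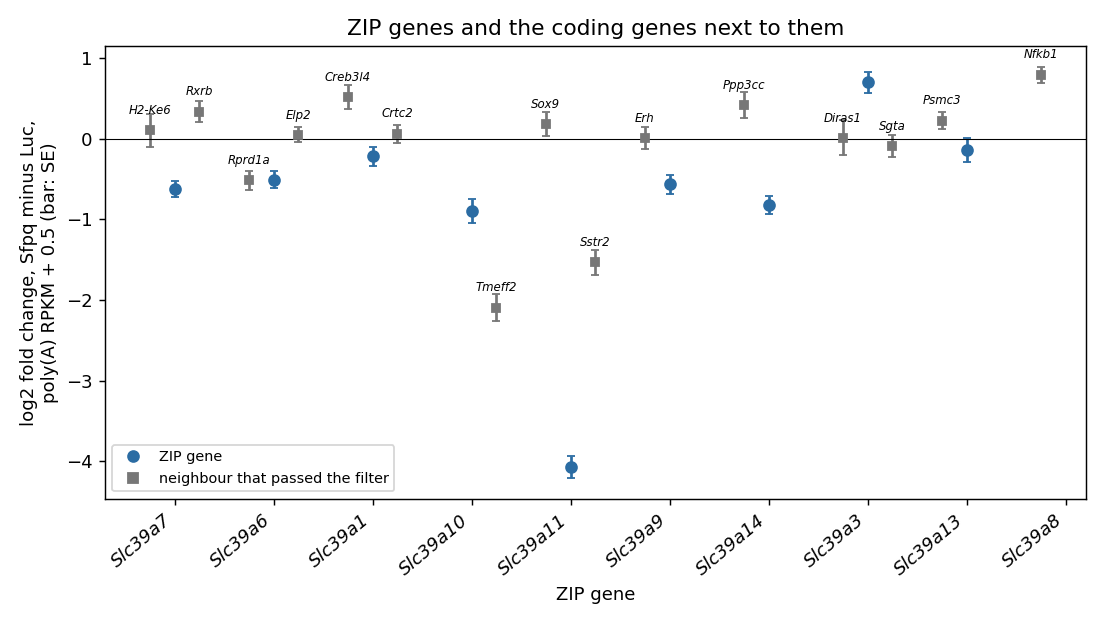
Log2 fold change of poly(A) RPKM + 0.5, Sfpq minus Luc (bars SE), for each ZIP gene that passed the filter (blue circles). Grey squares are the neighbours, the coding genes whose start coordinates come next before and after. Slc39a11 and Slc39a10 each have a neighbour that fell, Sstr2 at -1.53, which overlaps Slc39a11, and Tmeff2 at -2.10. Most other neighbours lie near 0.

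The ZnT genes, most of which move zinc out of the cytosol, also held falls. Of 10 listed, 6 passed the filter, 2 fell, 0 rose and 4 did not pass (limma), beside 18.6% lower and 21.3% higher among all genes. At an unadjusted limma p under 0.05, 4 of the 6 were lower and 0 higher, beside 22.3% lower and 26.9% higher among all genes. Their median log2 fold change was -0.32, beside 0.05 over all genes. Slc30a1, the zinc exporter of the plasma membrane and a target of Mtf1, had 8.33, 7.82 and 9.92 RPKM in Luc and 3.81, 4.29 and 4.51 RPKM in Sfpq libraries (log2 fold change -0.96, SE 0.12, limma adjusted p = 0.000366). It was close to halved, and in rRNA-depleted RNA it had 11.7 RPKM in Luc and 6.96 RPKM in Sfpq. Slc30a5, which loads zinc into the early secretory pathway, went from 31.5, 28.9 and 41.2 RPKM in Luc to 18.5, 22.4 and 22.3 RPKM in Sfpq libraries (-0.66, SE 0.15, limma adjusted p = 0.0063); with no filter on low values the limma adjusted p was 0.0648.

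Slc30a6, the partner of Slc30a5, had a log2 fold change of -0.30 (SE 0.12, limma adjusted p = 0.0697), and Slc30a4 had -0.33 (SE 0.13, limma adjusted p = 0.0641). Both had all Sfpq libraries below all Luc libraries without passing; Slc30a4 passed with median-ratio scaling (limma adjusted p = 0.0311), with quantile normalization (0.0401) and without Luc replicate 2 (0.0489), and Slc30a6 passed without Luc replicate 3 (limma adjusted p = 0.0177). Slc30a7 (0.24, SE 0.15) and Slc30a9 (0.21, SE 0.14) did not pass (limma adjusted p = 0.239 and 0.25). Without Luc replicate 3 both passed as higher, with log2 fold changes of 0.36 and 0.35, so that 2 ZnT genes were then called higher and 3 lower. Slc30a2, a zinc carrier of vesicles, stayed under the filter with 0.0623, 0.0329 and 0.0880 RPKM in Luc and 0.218, 0.695 and 0.382 RPKM in Sfpq libraries. Its rRNA-depleted values were 0.0237 and 0.517 RPKM, so that Sfpq was the higher group in both preparations at very low levels. Slc30a3, Slc30a8 and Slc30a10 had under 0.14 RPKM in every library.

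Genes of zinc buffering and sensing were low, and 3 passed the filter, of which 0 rose and 0 fell (limma), beside 21.3% higher and 18.6% lower among all genes. At an unadjusted limma p under 0.05, 2 were higher and 0 lower, beside 26.9% and 22.3% of all genes. The metallothionein gene Mt1 had 1.75, 2.34 and 1.73 RPKM in Luc and 1.94, 2.09 and 1.56 RPKM in Sfpq libraries (limma adjusted p = 0.825). Mt3, the metallothionein of neural tissue, had 3.38, 3.98 and 3.37 RPKM in Luc and 4.40, 5.79 and 3.92 RPKM in Sfpq libraries (limma adjusted p = 0.0986). Mtf1 had 1.17, 1.18 and 1.69 RPKM in Luc and 1.90, 2.12 and 1.66 RPKM in Sfpq libraries (log2 fold change 0.38, SE 0.15, limma adjusted p = 0.0668). For each of the 3 genes the groups overlapped; without Luc replicate 3 Mtf1 passed as higher (0.51, limma adjusted p = 0.00677). Mt2 did not reach the filter, at 0, 0.130 and 0.0583 RPKM in Luc and 0.355, 0.191 and 0.207 RPKM in Sfpq libraries. The Sfpq values were all the higher ones, at a level where a few reads decide the value. Its rRNA-depleted values were 0 in Luc and 0.0280 RPKM in Sfpq, and Mt4 was listed at 0 in all 8 libraries.

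Of 18 genes for transport and storage of other metals, 17 passed the filter, 6 fell, 2 rose and 9 did not pass, again beside 18.6% lower and 21.3% higher among all genes; their median log2 fold change was -0.10. The copper importer gene Slc31a1 fell the most, from 14.0, 12.9 and 18.2 RPKM in Luc to 5.16, 5.87 and 5.76 RPKM in Sfpq libraries (log2 fold change -1.34, SE 0.14, limma adjusted p = 9.57e-05). Steap3, an endosomal iron reductase gene (-1.03, SE 0.13, limma adjusted p = 0.000299), and the ferritin light chain gene Ftl1 (-0.82, SE 0.16, limma adjusted p = 0.00339) also fell; with no filter Ftl1 did not pass (limma adjusted p = 0.127). The 2 that rose encode exporters. Atp7a, the copper-exporting ATPase gene, went from 1.92, 1.71 and 2.75 RPKM in Luc to 4.02, 4.63 and 4.58 RPKM in Sfpq libraries (0.92, SE 0.16, limma adjusted p = 0.00161). Slc40a1, the iron exporter ferroportin, went from 1.19, 1.03 and 1.45 RPKM to 2.18, 2.49 and 2.58 RPKM (0.77, SE 0.13, limma adjusted p = 0.00186). All 5 of these genes went the same way in rRNA-depleted RNA, with log2 ratios of -1.28 (Slc31a1), -1.09 (Steap3), -1.15 (Ftl1), 0.93 (Atp7a) and 0.70 (Slc40a1). The direction was the same in both preparations for 16 of the 17 genes of this list, and for 86.7% of all genes measured in both.

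The genes whose log2(RPKM + 0.5) followed Slc39a11 most closely over the 8 libraries were Tshz2, a zinc-finger transcription factor gene (Pearson r = 0.9996), Lhfpl2, a tetraspan membrane protein gene (0.999), Man1c1, a mannosidase gene of the Golgi (0.999), Gm2a, the gene of a lysosomal lipid-transfer protein (0.998), and Cradd, an adaptor gene in cell death signalling (0.998). They were ranked among 10969 genes averaging 1 RPKM or more. The 8 libraries hold only 2 treatments and 2 preparations, so that both differences enter every r. Tshz2 held 6.45% of its Luc mean in Sfpq poly(A) libraries, Cradd 8.97%, Man1c1 10.9%, Lhfpl2 15.6% and Gm2a 17.5%, against 2.30% for Slc39a11. Within the ZIP family Slc39a14 (r = 0.986), Slc39a10 (0.929) and Slc39a9 (0.924) were the closest to Slc39a11 over the same 8 libraries. Those members also had nearly the same RPKM in both preparations in Luc, where most genes were lower in rRNA-depleted RNA. Slc39a1 (0.54) and Slc39a13 (0.48) came next. Slc39a6 (0.27) and Slc39a7 (0.12) fell in poly(A) RNA too, but were much lower in rRNA-depleted than in poly(A) RNA. Slc39a3 (-0.63) and Slc39a4 (-0.41) ran the other way. The order is a description only and is not one of response to Sfpq siRNA alone.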

How the data were processed

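RPKM values, 1 file per library and 1 row per RefSeq transcript, were deposited by the authors. The submitters' processing notes name TopHat2 2.0.10 and mm9. How RPKM was computed (program, annotation, strand setting, multiply matching reads) is not given in the sources used here. Such values hold no read counts, so no counting interval can be given. Of 30978 rows, 98.5% were named through RefSeq GRCm38.p6, used for names, neighbours and promoter windows only; a gene was represented by its highest row on average over the 8 libraries.

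The poly(A) comparison used limma 3.58.1 (R 4.3.3, trended prior) on log2(RPKM + 0.5), keeping genes that averaged 0.5 RPKM or more in these 6 libraries, with Benjamini-Hochberg adjustment over all of them and calls at an adjusted p under 0.05. The fit was tested on simulated data. The rRNA-depleted pair is given as log2 ratios on the same scale. Other steps used Python 3.11.15.

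Named were all ZIP genes, the ZnT and zinc buffering genes, the 3 largest called changes per direction of the other metal list, the neighbours, Sfpq and the 5 genes most like Slc39a11; neighbours that did not pass are mostly given as a range, and H2-Ke6 and Rxrb were singled out after their values were seen. Members and lists were chosen with earlier results of these data known. Group and replicate came from the titles; the description of Sfpq replicate 2 carries another replicate number. RNA polymerase II chromatin immunoprecipitation libraries, listed in the series, are not analysed here.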

Additional observations from a re-analysis of the deposited data

How the results depend on the processing

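The alternatives varied the added constant (0.1 or 1), the filter (none, or 2 RPKM), the scaling (median-ratio or quantile), limma's trend and how rows of 1 gene were combined, added a replicate block, and left out each library. Among the members other than Slc39a11, 5 were called lower and 1 higher under each of these, except 6 lower without Luc replicate 3. Over all genes, leaving out 1 library gave between 1546 (without Sfpq replicate 2) and 3621 (without Luc replicate 3) higher calls and between 1673 and 2645 lower ones. ZnT genes called higher ranged from 0 to 2 and zinc buffering genes from 0 to 1 in those fits, the upper values both without Luc replicate 3. With no filter, 1 ZnT gene was lower, and at a minimum mean of 2 RPKM, where fewer genes were tested, 1 gene of the other metal list was higher. Mt1 ranged from -0.12 to 0.068 on leaving out 1 library, with a changed sign without Luc replicate 2 (0.068) or Sfpq replicate 3 (0.051), and passed in neither. The cause of these shifts was not tested. With the replicate block 2681 genes were higher and 2309 lower. Deviations from the group mean correlated at 0.33, -0.04 and 0.16 for equal replicate numbers, and from -0.28 to 0.17 for unequal ones. Whether the numbers pair the libraries cannot be told from these values, and the main fit treats the libraries as unpaired. The rRNA-depleted pair has no replicate, and depth limits what can be said of Slc39a8, Slc30a2, Mt2 and the rRNA-depleted values of Slc39a7.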
